A study of Mus musculus with 42 samples.

Results

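The genes described here are 49 mouse interferon-stimulated genes, chosen by symbol as a family known to answer to interferon. Of the 49, 43 had a transcript cluster (the set of probes that reads 1 gene) with their symbol alone, among 19752 symbols on the array, and all 43 were bright enough to be tested. Isg15, Gbp2, Igtp and Irgm2 lie on clusters that carry several symbols, and Ly6a and Ifi44 are not listed in the gene table of the platform, so that no value is given for these 6. The 43 fall into 15 antiviral effectors, 4 RNA sensors, 4 transcription factors, 6 immunity GTPases, 2 chemokines, 7 regulators, 2 genes of antigen processing or the cell surface and 3 other induced genes.

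Interferons are secreted proteins that warn neighbouring cells of infection. Type I interferons switch on genes that carry a DNA element called ISRE, to which Stat2 and Irf9 are brought, and interferon gamma switches on genes that carry an element called GAS. The induced genes block viral translation and assembly, sense foreign RNA, mark pathogen vacuoles and draw T cells, and T cells both make interferon gamma and answer to interferons.

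RNA was measured on 42 arrays from CD4+ T cells of the spleen of NOD mice, a strain prone to autoimmune diabetes, with the Foxp3-IRES-GFP allele, which makes regulatory T cells (Treg), the cells defined by the factor Foxp3, fluoresce green. Conventional T cells (Tconv, GFP-) and Treg (GFP+) were sorted from untreated mice (0 h) and at 2, 8, 24 and 72 h after intravenous KT3, an antibody to CD3 that triggers the T cell receptor, and at 24 h after rat IgG, with a single array for each cell type. In the other setting KT3 was added at 1.25 µg/ml to whole splenocytes in culture for 0, 2, 8, 24 and 72 h, and both cell types were sorted afterwards. Each of these groups other than IgG had 2 arrays, numbered 1 and 2, with number 1 in culture from female mice (9 weeks) and number 2 from male mice (14 weeks). There the 2 arrays thus stand for different mice, and the number cannot be told apart from sex or age. All in vivo arrays were of female mice (8 weeks). The labels do not say whether the 2 of a group came from separate mice, so that the spread between them may be technical. The labels give the GFP- gate for every culture array, those named Treg included, yet Foxp3 read 11.30 to 12.34 log2 units on all Treg arrays and 7.02 to 8.20 on all Tconv arrays. Arrays numbered 1 in vivo were labelled single sorted apart from Tconv at 8 h, and arrays numbered 2 double sorted apart from Tconv at 8 h and Treg at 24 h.

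Values are log2 of the deposited intensities. A gene is called, and is said to have risen or fallen, where limma's moderated two-sided test over all 42 arrays gave an adjusted p under 0.05 (Benjamini-Hochberg over 12425 genes). Errors after ± are standard errors (SE) of that model, with 2 arrays a group apart from IgG, which had 1. The model pools the spread of each gene over both settings. Tests in vivo thus also draw on culture pairs that differ in sex and age, and tests in culture on in vivo pairs. Neither measures the spread of its own setting alone. All times of a cell type and setting share the same 2 arrays at 0 h, so that the 4 time comparisons of a series are not independent. In sorted bulk RNA fewer cells with a transcript and less of it per cell cannot be told apart. The culture Tconv array at 0 h numbered 1 stood apart (mean correlation with the other arrays 0.79, interquartile range 1.64 log2 units), followed by culture Tconv at 8 h number 1 (range 2.10) and culture Treg at 0 h number 1 (range 2.19). Counts of members that rest on the first are given with and without it. The mean of 4 T cell markers was 10.34 log2 units or more on every array. Markers of other cells read higher on in vivo arrays numbered 1 than on those numbered 2: their mean was 6.28 to 7.16 against 5.57 to 5.82.

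Promoter sequences are shown first, because ISRE and GAS are the elements that define how this family is switched on. RefSeq windows of 300 bases (GRCm38.p6, 250 bases before to 50 after the gene's start) were matched for 35 of the 49 members. The ISRE core searched was GAAA, any 2 bases and GAAA, or its complement on the opposite strand, TTTC, any 2 bases and TTTC, and GAS was TTCNNNGAA, which reads alike on both strands. An ISRE core was found in 21 of the 35 windows (60.0%), against 3.49% of 27025 windows of all genes. A GAS was found in 11 of the 35 (31.4%), against 8.47% of all genes. By role, the ISRE core was in 7 of 7 GTPase windows, 3 of 3 RNA sensor windows and 8 of 12 effector windows, and in 1 of 4 transcription factor windows. It was in 1 of 3 regulator and 1 of 2 chemokine windows. Antigen processing or surface genes had it in 0 of 2 and other induced genes in 0 of 2. The GTPase windows include Gbp2, Igtp and Irgm2, which have no expression value here, and lack Gbp4 and Iigp1. Among the 30 windows of tested members 17 (56.7%) held the core. In 1 window, of Bst2, an ISRE core shared bases with a GAS.

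The 6 windows below belong to members that the results turn on: Ifit1 and Stat2 as genes of the 8 h rise in Treg culture, Cxcl10 for its early rise, Gbp5 as the member called most often, Ms4a4c for its late rise in Tconv, and Irf7 as the factor that amplifies type I interferon. Capitals mark ISRE cores and GAS matches, 5′ to 3′ on the gene's strand.
Ifit1: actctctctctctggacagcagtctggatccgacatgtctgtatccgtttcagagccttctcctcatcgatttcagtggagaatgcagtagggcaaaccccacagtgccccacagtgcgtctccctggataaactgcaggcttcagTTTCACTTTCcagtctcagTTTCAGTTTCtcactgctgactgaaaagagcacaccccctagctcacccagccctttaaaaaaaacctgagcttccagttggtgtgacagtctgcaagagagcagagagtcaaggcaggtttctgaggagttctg
Stat2: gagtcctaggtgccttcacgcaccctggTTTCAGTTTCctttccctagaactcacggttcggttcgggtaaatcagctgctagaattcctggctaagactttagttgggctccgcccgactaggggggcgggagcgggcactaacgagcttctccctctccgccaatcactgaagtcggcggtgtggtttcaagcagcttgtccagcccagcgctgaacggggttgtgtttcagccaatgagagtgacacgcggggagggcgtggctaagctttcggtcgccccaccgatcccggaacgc
Cxcl10: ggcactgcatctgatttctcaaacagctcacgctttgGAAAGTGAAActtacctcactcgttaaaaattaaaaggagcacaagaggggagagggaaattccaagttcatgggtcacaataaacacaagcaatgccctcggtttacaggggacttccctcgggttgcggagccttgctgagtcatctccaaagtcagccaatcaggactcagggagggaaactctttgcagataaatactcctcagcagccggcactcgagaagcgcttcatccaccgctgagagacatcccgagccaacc
Gbp5: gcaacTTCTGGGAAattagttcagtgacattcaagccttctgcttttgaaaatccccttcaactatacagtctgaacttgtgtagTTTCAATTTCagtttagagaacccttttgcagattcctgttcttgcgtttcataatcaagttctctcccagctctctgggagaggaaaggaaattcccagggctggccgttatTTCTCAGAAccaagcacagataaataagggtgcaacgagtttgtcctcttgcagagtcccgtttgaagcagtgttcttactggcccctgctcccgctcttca
Ms4a4c: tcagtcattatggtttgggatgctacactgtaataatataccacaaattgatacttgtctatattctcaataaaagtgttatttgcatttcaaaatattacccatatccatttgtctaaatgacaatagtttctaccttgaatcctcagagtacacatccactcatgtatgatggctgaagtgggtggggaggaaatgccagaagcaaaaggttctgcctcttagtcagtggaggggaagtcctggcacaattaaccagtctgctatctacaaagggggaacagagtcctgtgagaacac
Irf7: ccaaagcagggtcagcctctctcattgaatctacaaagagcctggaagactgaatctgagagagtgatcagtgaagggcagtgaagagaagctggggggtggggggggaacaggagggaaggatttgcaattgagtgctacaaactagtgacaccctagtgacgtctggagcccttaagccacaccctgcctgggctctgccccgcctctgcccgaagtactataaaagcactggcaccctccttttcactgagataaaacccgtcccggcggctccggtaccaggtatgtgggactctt
The Ifit1 window (chr19:34640639-34640938, plus strand) holds 2 ISRE cores, which begin 104 and 85 bases before the start. Stat2 (chr10:128270248-128270547, plus strand) and Cxcl10 (chr5:92348840-92349139, minus strand) hold 1 each, 222 and 213 bases before the start. Gbp5 (chr3:142496684-142496983, plus strand) holds 1 ISRE core at 165 bases and 2 GAS at 245 and 52 bases before the start. Neither motif is in these letters for Ms4a4c (chr19:11407411-11407710, plus strand) or Irf7 (chr7:141266375-141266674, minus strand), which says nothing of sequence outside the window. A match is a description of letters and not a measured binding site.

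Before stimulation, 2 guanylate binding proteins, GTPases that coat pathogen vacuoles, were higher in Treg than in Tconv in both settings. In vivo Gbp3 read 10.19 and 9.63 on the Treg arrays against 7.12 and 6.88 on the Tconv arrays. Gbp5 read 9.43 and 8.95 against 7.70 and 7.34. The groups did not overlap for either gene, which with 2 arrays a group also held for other members, most of them not called. The share of all genes without overlap was not counted, here or below. The differences were 2.91 ± 0.35 log2 units for Gbp3 (adjusted p = 4.4e-06) and 1.67 ± 0.29 for Gbp5 (adjusted p = 0.00055), and both calls were kept without each array in turn. Eif2ak2, the kinase PKR that stops translation on sensing double-stranded RNA, was also higher (1.43 ± 0.36, adjusted p = 0.021), a call lost without Treg number 1, Tconv number 1 or Tconv number 2. Altogether 3 of 43 members were called higher in Treg in vivo, where 2.58% of all tested genes were. The median member difference was 0.38, against 0.00 over all genes.

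In culture at 0 h 8 of 43 members were called higher in Treg, where 8.68% of all genes were. The largest were Gbp3 (2.68 ± 0.35, adjusted p = 2.2e-05), Gbp7 (2.20), Gbp5 (2.14 ± 0.29, adjusted p = 3.3e-05), Ifi27l2a (1.72), Parp14 (1.35) and Irgm1 (1.10). Without culture Tconv number 1 the called members numbered 2, Gbp3 and Gbp5, at 2.59 and 1.94. With the array number as a block, the numbers standing for sex and age here, 16 were called. The count was 3 without Treg number 2, 13 without Treg number 1 and 24 without Tconv number 2.

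Members at 0 h in vivo differed between the arrays of 1 group. On number 1, 42 of 43 members read higher than on number 2 in Treg, with a median difference of 0.79, and 39 of 43 in Tconv, with a median difference of 0.49. Over all tested genes 64.0% were higher on number 1 in Treg and 53.2% in Tconv. Ifit1, whose product binds viral RNA and blocks its translation, read 9.24 and 7.54 in Treg and 8.69 and 7.50 in Tconv. Other-cell markers at 0 h were at 6.37 and 5.78 in Treg and 6.38 and 5.74 in Tconv, so that at 0 h they were higher on number 1 as well. At 72 h these markers also differed by number, at 7.16 and 5.60 in Treg and 6.72 and 5.70 in Tconv. There 24 of 43 members in Treg and 17 of 43 in Tconv read higher on number 1, with median differences of 0.02 and -0.14. In Treg at 8 h 40 of 43 members read higher on number 1, where 56.7% of all genes did, with the markers at 7.04 and 5.68. The part of other cells in the member readings was not tested.

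**Figure D1:**
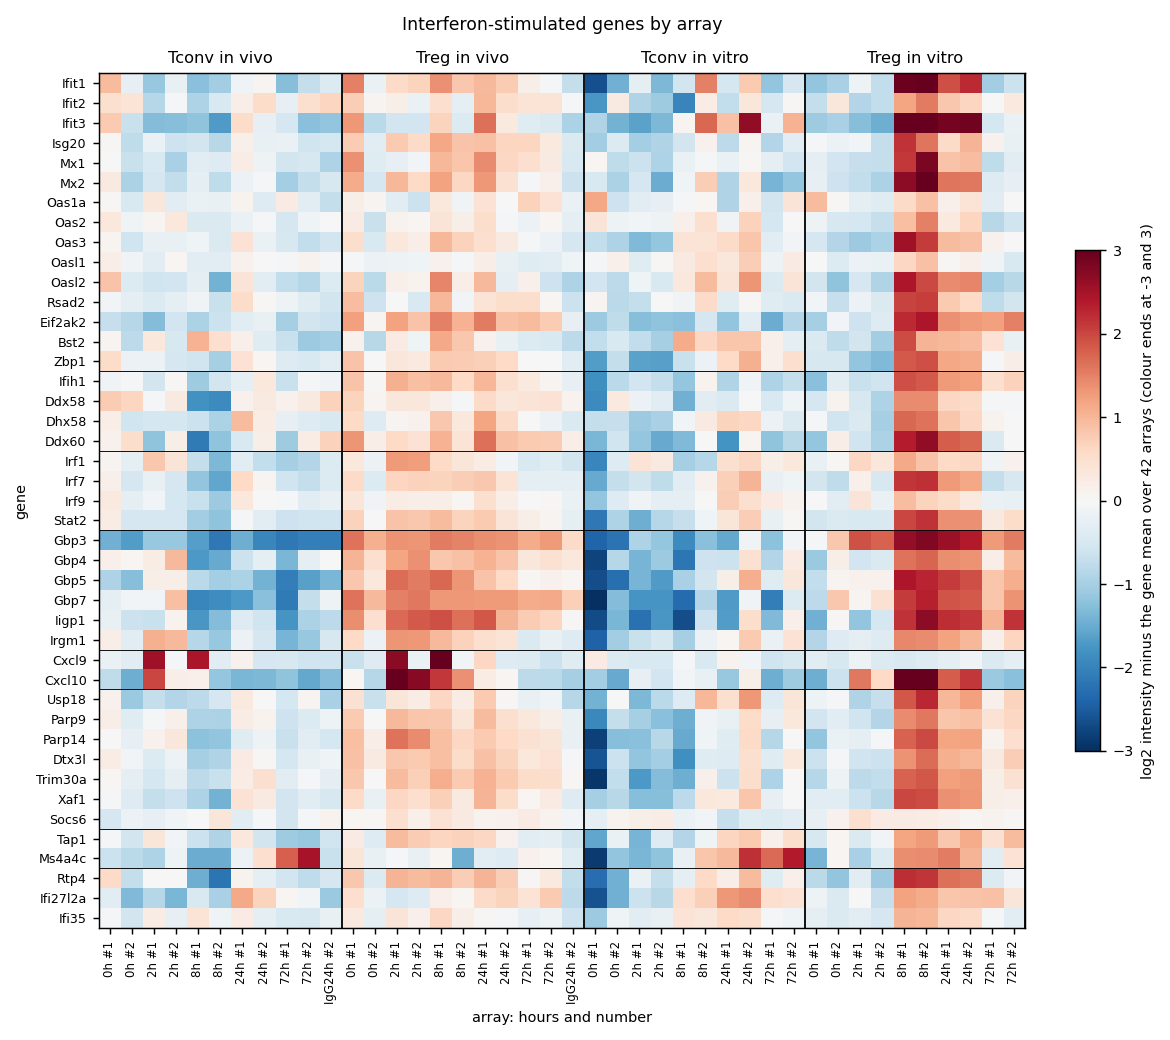
Each row is 1 of the 43 genes, in blocks by role, each column 1 of the 42 arrays, and colour is the log2 intensity minus the mean of the gene over all arrays. Treg in culture at 8 h hold the highest array of 37 of the 43 genes, and Tconv in culture at 0 h the lowest array of 25.

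In Treg in culture nearly the whole family rose by 8 h. Of 43 members 39 rose and none fell, where 4.52% of all genes rose. The median change was 2.21 log2 units, against 0.07 over all genes, and the highest of the 42 arrays was a Treg culture array at 8 h for 37 of the 43 members. The mean of the 43 went from 7.74 and 8.00 at 0 h to 10.08 and 10.14 at 8 h, with no overlap. The calls were 27 without Treg at 0 h number 1 and 29 without either array at 8 h, and 24 members stayed called without each array in turn. Without the 3 arrays of narrowest range 35 members were called.

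Of 15 antiviral effectors 13 rose at that time, with a median of 2.43. Ifit3 read 5.55 and 5.64 at 0 h and 9.87 and 10.32 at 8 h. Ifit1 read 6.55 and 6.78 at 0 h and 10.68 and 11.01 at 8 h. The changes were 4.50 ± 0.63 for Ifit3 (adjusted p = 3.6e-05) and 4.18 ± 0.57 for Ifit1 (adjusted p = 2.6e-05). All 4 arrays of each gene were separated by time, which with 2 arrays a group also held for members not called. Mx2, a dynamin-like GTPase that restricts viruses, read 5.75 and 5.37 at 0 h and 8.68 and 9.42 at 8 h (3.49 ± 0.46, adjusted p = 1.7e-05). Mx1 rose by 2.90, from 5.81 and 5.52 to 8.22 and 8.92. The 2'-5' oligoadenylate synthetases, which activate an RNase on double-stranded RNA, were not uniform. Oas3 rose by 3.01, Oas2 by 1.52, and the related Oasl2 by 3.08 and Oasl1 by 0.96, while Oas1a changed by 0.24 ± 0.42 (adjusted p = 0.75). Eif2ak2 read 5.40 and 6.30 at 0 h and 8.61 and 8.81 at 8 h. Its change was 2.86 ± 0.36 (adjusted p = 8.1e-06). Rsad2 (viperin) rose by 2.43, Zbp1, a sensor of Z-form nucleic acid, by 2.37, Bst2 (tetherin) by 2.09 and Isg20, an exonuclease, by 2.00. Ifit2 changed by 1.56 ± 0.55 and was not called (adjusted p = 0.11), with 6.84 and 7.87 at 0 h against 8.73 and 9.09 at 8 h.

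All 4 RNA sensors rose at 8 h, with a median of 2.34. Ifih1 (MDA5) rose by 2.67, Ddx58 (RIG-I) by 1.62, Dhx58 (LGP2) by 2.01 and Ddx60 by 2.98. Ifih1 read 6.39 and 7.33 at 0 h and 9.58 and 9.48 at 8 h. All 4 transcription factors rose as well. Irf7 read 8.68 and 8.47 at 0 h and 11.37 and 11.42 at 8 h (2.82 ± 0.29, adjusted p = 7.4e-07). Stat2 read 8.61 and 8.73 at 0 h and 11.17 and 11.34 at 8 h (2.58 ± 0.30, adjusted p = 3.1e-06). Irf1 rose by 1.11 and Irf9 by 0.98. Without Treg at 0 h number 1 the calls were 2 of 4 sensors and 2 of 4 factors, and 2 factors were called without Treg at 8 h number 1.

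The 6 GTPases rose together, with a median of 2.27. Iigp1, which disrupts parasite vacuoles, read 6.58 and 8.04 at 0 h and 10.17 and 10.69 at 8 h (3.12 ± 0.65, adjusted p = 0.0037). Gbp5 read 7.90 and 8.72 at 0 h and 11.05 and 10.92 at 8 h (2.68 ± 0.29, adjusted p = 1.2e-06). Gbp3, Gbp7, Gbp4 and Irgm1 rose by 2.33, 2.21, 2.16 and 2.06. The arrays at the different times did not overlap for any of these GTPases, which was also so for Ifit2, not called. The calls of Gbp4 and Gbp7 were lost without Treg at 0 h number 1 and without either array at 8 h.

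Cxcl10, a chemokine that draws T cells through Cxcr3, had the largest change of any member. It read 6.39 and 7.21 at 0 h, 9.45 and 8.47 at 2 h, 11.91 and 10.90 at 8 h, 9.67 and 9.99 at 24 h and 6.75 and 6.60 at 72 h. The rise at 8 h was 4.60 ± 0.51 (adjusted p = 1.5e-06). Cxcl9, its close relative, stayed between 5.67 and 6.05 on the 10 Treg culture arrays, with a change at 8 h of -0.02 ± 0.90. Of the 7 regulators 6 rose: Parp14 by 2.56, Trim30a by 2.32, Xaf1 by 2.31, Usp18, the protease that strips Isg15 and damps the type I receptor, by 2.17, Parp9 by 1.95 and its partner Dtx3l by 1.87. Socs6 changed by 0.29 ± 0.19 (adjusted p = 0.38). Tap1, a subunit of the peptide transporter for class I presentation, rose by 1.44 and Ms4a4c, a tetraspan surface protein, by 2.08. Rtp4 rose by 3.19, Ifi27l2a by 1.47 and Ifi35 by 1.36.

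At 24 h in culture 28 of 43 members were still above 0 h in Treg, where 5.01% of all genes rose, and none had fallen. The median change was 1.62, against 0.07 over all genes. The largest were Ifit3 (3.90), Ifit1 (3.16), Cxcl10 (3.02), Iigp1 (2.87), Rtp4 (2.62) and Gbp5 (2.33). Calls without each array in turn were kept by 11 members: Cxcl10, Gbp3, Gbp5, Ifit1, Ifit3, Irf7, Oas3, Rtp4, Stat2, Xaf1 and Zbp1. The count was 14 without Treg at 0 h number 1, 13 without Treg at 24 h number 1 and 14 without Treg at 24 h number 2.

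At 72 h 4 members remained called in Treg culture, where 7.34% of all genes rose. They were Iigp1 (2.30 ± 0.65, adjusted p = 0.023), Eif2ak2 (1.90 ± 0.36, adjusted p = 0.00058), Ifih1 (1.37 ± 0.39, adjusted p = 0.023) and Gbp5 (1.29 ± 0.29, adjusted p = 0.0041). Ifit1 was at 6.71 and 7.10 and Ifit3 at 6.08 and 6.42, near their readings at 0 h, while Eif2ak2 stayed at 7.61 and 7.89. Eif2ak2 alone kept its call without each array. The count was 1 without Treg at 0 h number 1 or Treg at 72 h number 2, 11 without culture Tconv at 0 h number 1 and 12 with the array number as a block. At 2 h 2 members had risen, where 4.02% of all genes rose: Cxcl10 (2.16 ± 0.51, adjusted p = 0.0087) and Gbp3 (1.46 ± 0.35, adjusted p = 0.011). Neither was called without Treg at 0 h number 1 or without Treg at 2 h number 1, and 1 without Treg at 2 h number 2.

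**Figure D2:**
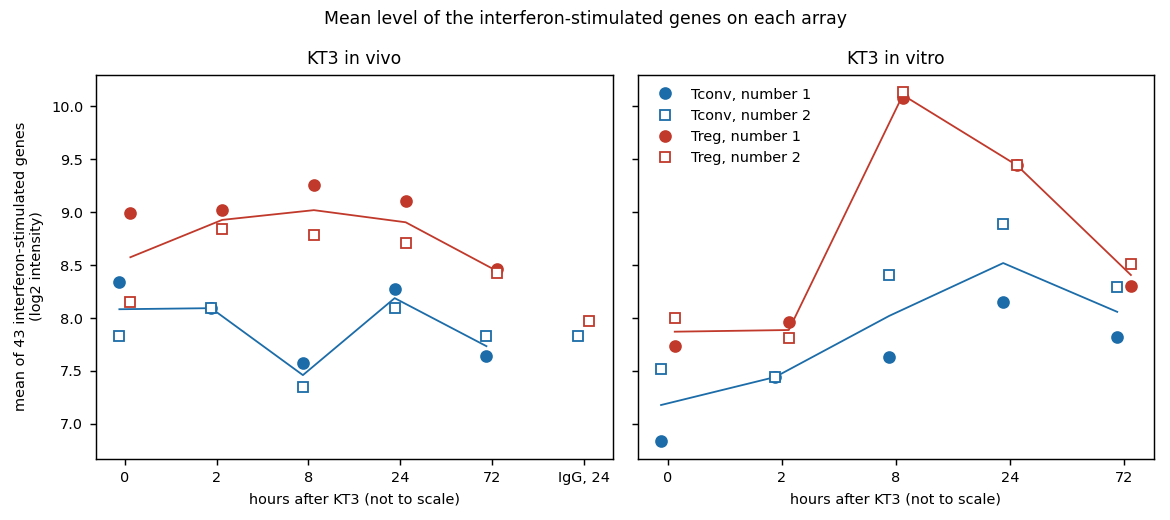
Points give the mean log2 intensity of the 43 genes on each array (filled circles number 1, open squares number 2) by hours after KT3, and lines join the means of 2 arrays. Treg in culture reach 10.08 and 10.14 at 8 h, while Tconv in vivo are at 7.58 and 7.35.

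In Tconv in culture the members were highest at 24 h. The mean of the 43 was 6.84 and 7.52 at 0 h, 7.44 and 7.45 at 2 h, 7.63 and 8.41 at 8 h, 8.15 and 8.89 at 24 h and 7.82 and 8.29 at 72 h. At 24 h 26 of 43 rose, where 19.4% of all genes rose, with a median change of 1.47 against 0.23 over all genes. The count was 11 without Tconv at 0 h number 1 and 17 without Tconv at 24 h number 2. Members lower on number 1 than on number 2 numbered 39 of 43 at 8 h and also at 24 h, with median differences of -0.68 and -0.79. Over all genes 40.9% at 8 h and 47.5% at 24 h were higher on number 1.

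Ms4a4c, Ifi27l2a and Gbp5 had the 3 largest changes there. Ifi27l2a, a mitochondrial protein of unclear role, read 7.21 and 8.38 at 0 h, 9.17 and 8.97 at 2 h, 10.31 and 10.52 at 8 h, 11.11 and 11.22 at 24 h and 10.31 and 10.25 at 72 h. Its change at 24 h was 3.37 ± 0.33 (adjusted p = 2.8e-07), and 2.79 without Tconv at 0 h number 1. Gbp5 read 5.97 and 6.37 at 0 h and 8.81 and 9.73 at 24 h. Its change was 3.10 ± 0.29 (adjusted p = 1.9e-07), and 2.90 without that array. Ms4a4c rose by 3.61 ± 0.53 at 24 h (adjusted p = 0.00011), and by 2.77 without that array. The groups at 24 h did not overlap for any of the 3, which with 2 arrays a group also held for members not called. The other large rises at 24 h were Ifit3 (2.93), Rtp4 (2.44) and Ifit1 (2.17), of which Rtp4 kept its call without each array in turn. Altogether 10 members did: Gbp5, Ifi27l2a, Irf7, Irgm1, Ms4a4c, Oas3, Rtp4, Stat2, Xaf1 and Zbp1. All 4 transcription factors were called (Stat2 2.07, Irf7 1.98, Irf1 1.72, Irf9 1.40), with 6 of 15 antiviral effectors and 1 of 4 RNA sensors, Dhx58 (1.35). The effectors called were 3 without Tconv at 0 h number 1 or Tconv at 24 h number 2. The calls of Irf1, Irf9 and Dhx58 were lost without Tconv at 0 h number 1, at 0.93, 1.00 and 1.34.

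At 8 h 13 of 43 rose in Tconv culture, where 15.7% of all genes rose, with a median of 0.73 against 0.02. Ifi27l2a (2.63), Ifit1 (2.51), Ms4a4c (2.33), Ifit3 (2.07), Rtp4 (2.02) and Gbp5 (1.70) changed most. Gbp5, Ifi27l2a, Oas3 and Rtp4 stayed called without each array. The count was 5 without Tconv at 0 h number 1, 6 without Tconv at 8 h number 2 and 24 without Tconv at 0 h number 2. At 2 h 6 of 43 rose, where 19.5% of all genes rose, led by Irf1 (1.53), Rtp4 (1.41), Ifi27l2a (1.28), Gbp3 (1.26), Irgm1 (1.16) and Gbp5 (0.92). Without Tconv at 0 h number 1 none was called at 2 h, 1 was without Tconv at 2 h number 1, and 19 were without Tconv at 0 h number 2.

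At 72 h 15 of 43 were called higher in Tconv culture, where 6.65% of all genes were, with a median of 0.80 against 0.15. Ms4a4c was the largest. It read 5.48 and 7.15 at 0 h, 9.31 and 10.54 at 24 h and 10.04 and 10.72 at 72 h, a change at 72 h of 4.06 ± 0.53 (adjusted p = 3.6e-05), and 3.23 without Tconv at 0 h number 1. Ifi27l2a (2.49) and Gbp5 (2.44) also kept their calls without each array, while Irgm1 (1.86), Rtp4 (1.76) and Gbp3 (1.65) did not. The count was 3 without Tconv at 0 h number 1, 9 without Tconv at 72 h number 1, 4 without Tconv at 72 h number 2 and 26 without Tconv at 0 h number 2.

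**Figure D3:**
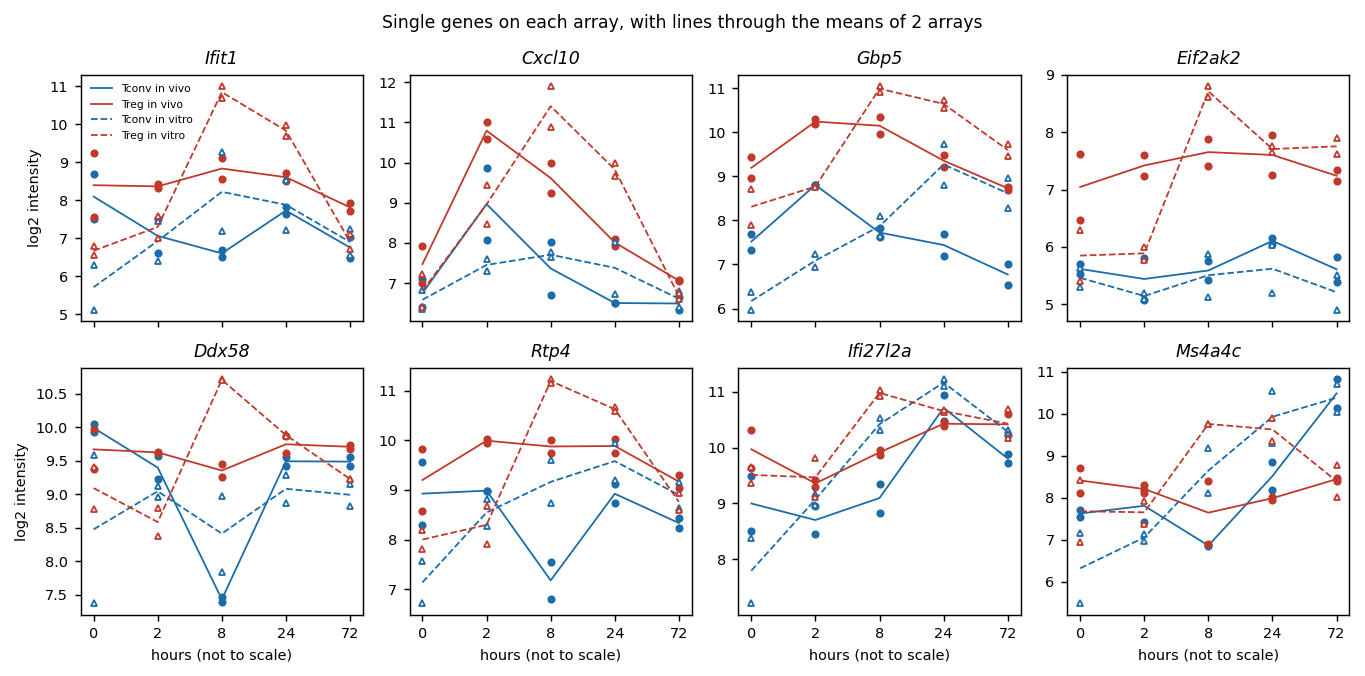
Log2 intensity of 8 genes by hours after KT3, with each array as a point (filled circles in vivo, open triangles in culture; blue Tconv, red Treg) and lines through the means. Ifit1 and Cxcl10 peak in cultured Treg at 8 h, Ddx58 reads 7.47 and 7.39 in Tconv in vivo at 8 h, and Ms4a4c is highest in Tconv at 72 h.

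The Treg and Tconv responses in culture differed most at 8 h. The Treg change was called larger for 6 members, where 0.652% of all genes were called in either direction, and the median difference was 1.46 against 0.00 over all genes. They were Cxcl10 (3.48 ± 0.72, adjusted p = 0.019), Eif2ak2 (2.82 ± 0.50, adjusted p = 0.0054), Mx1 (2.66 ± 0.53, adjusted p = 0.013), Irf7 (1.81), Oas3 (1.77) and Xaf1 (1.63). Eif2ak2 read 5.14 and 5.88 in Tconv at 8 h, beside 5.29 and 5.63 at 0 h, while in Treg it had gone to 8.61 and 8.81. Mx1 read 5.92 and 6.08 in Tconv at 8 h, beside 6.17 and 5.34 at 0 h. The calls were 12 with the array number as a block. No call survived leaving out each array in turn: the count was 0 without Tconv at 8 h number 1 or Treg at 0 h number 1, 2 without Treg at 8 h number 1, 3 without Treg at 0 h number 2 or Treg at 8 h number 2, 13 without Tconv at 0 h number 1 and 11 without Tconv at 0 h number 2.

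At 24 h 1 member differed, where 0.491% of all genes did. Ifi27l2a rose less in Treg (-2.23 ± 0.46, adjusted p = 0.02), from 9.65 and 9.37 to 10.64 and 10.67, which starts above Tconv and ends below. At 72 h 2 differed, where 1.79% of all genes did: Ms4a4c rose less in Treg (-3.35 ± 0.75, adjusted p = 0.013), and Eif2ak2 more (2.16 ± 0.50, adjusted p = 0.02). Ms4a4c read 8.01 and 8.77 in Treg at 72 h, against 10.04 and 10.72 in Tconv. The call at 24 h was lost without 6 of the 8 arrays compared, and without Tconv at 0 h number 1 no member was called there, while without Tconv at 0 h number 2 there were 6 at 24 h and 12 at 72 h. At 72 h the count was 0 without Treg at 72 h number 1 and 1 without each of the 6 remaining arrays. At 2 h no member was called with limma (2 at an unadjusted p under 0.05), where 0.145% of all genes were, and 6 were without Tconv at 0 h number 2.

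In vivo the Tconv response at 8 h ran downward. Of 43 members 11 fell, where 6.54% of all genes fell, and 1 rose, where 14.4% rose. The median change was -0.74 log2 units against -0.06 over all genes. Of all genes called at that time 68.8% were higher, a share that was 54.5% after quantile normalization and 81.6% after median centring. The mean of the 43 went from 8.34 and 7.83 at 0 h to 7.58 and 7.35 at 8 h, with no overlap, and was back at 8.28 and 8.10 at 24 h.

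Ddx58 (RIG-I) fell most. It read 10.05 and 9.93 at 0 h, 9.22 and 9.57 at 2 h, 7.47 and 7.39 at 8 h, 9.43 and 9.55 at 24 h and 9.42 and 9.56 at 72 h. The change at 8 h was -2.56 ± 0.41 (adjusted p = 5.9e-05), and this was the 1 call kept without each array in turn. Ddx60 fell by 2.00, from 7.47 and 7.87 to 5.21 and 6.14, Rtp4 by 1.75, from 9.57 and 8.29 to 7.55 and 6.81, Gbp4 by 1.73, Gbp7 by 1.71 and Irf7 by 1.20. All 4 transcription factors fell, Stat2 by 0.99, Irf1 by 0.92 and Irf9 by 0.87 beside Irf7, and none was called without Tconv at 0 h number 1 or Tconv at 8 h number 2. Zbp1 and Xaf1 fell by 0.98 and 0.94. Bst2 rose against the rest, from 8.99 and 8.12 to 9.95 and 9.40 (1.12 ± 0.35, adjusted p = 0.023). The count of 12 was 3 without Tconv at 0 h number 1, 7 without Tconv at 8 h number 1, 3 without Tconv at 8 h number 2 and 18 without culture Tconv at 0 h number 1. Median centring left 8, and leaving out every in vivo array numbered 1 left none, with 1 array a group. Other-cell markers were at 6.32 and 5.57 at 8 h beside 6.38 and 5.74 at 0 h.

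At 2 h in Tconv in vivo 2 members rose, where 3.04% of all genes rose. Gbp5 read 7.70 and 7.34 at 0 h and 8.81 and 8.80 at 2 h (1.28 ± 0.29, adjusted p = 0.0093). Cxcl10 rose by 2.22 ± 0.51 (adjusted p = 0.01), from 7.11 and 6.39 to 9.87 and 8.06. At 24 h Ifi27l2a was the 1 member called, where 2.27% of all genes rose, with 9.50 and 8.50 at 0 h and 10.95 and 10.47 at 24 h (1.71 ± 0.33, adjusted p = 0.0019). At 72 h Ms4a4c was the 1 member called, where 0.266% of all genes rose, with 7.70 and 7.54 at 0 h and 10.14 and 10.82 at 72 h (2.86 ± 0.53, adjusted p = 0.0091). The groups did not overlap for any of these 4 genes. With 2 arrays a group this also held for other members at 2, 24 and 72 h, most of them not called. Its share over all genes was not counted. Over the 43 members the median change was -0.15 at 2 h, 0.09 at 24 h and -0.40 at 72 h, against -0.05, -0.01 and -0.0047 over all genes. At 72 h only 5 of the 43 changes were above 0, and 9 members had an unadjusted p under 0.05. None of the 4 calls survived leaving out each array. At 2 h no member was called without Tconv at 0 h number 2 or Tconv at 2 h number 1, and 4 were without culture Tconv at 0 h number 1. At 24 h the call was lost without Tconv at 0 h number 2 or Tconv at 24 h number 1, and at 72 h without Tconv at 0 h number 1 or 2 or Tconv at 72 h number 2.

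In Treg in vivo few members were called early, 3 of 43 at 2 h and 4 of 43 at 8 h, all higher, and none fell at any time. Of all genes called 78.1% were higher at 2 h and 65.8% at 8 h. Whether these member counts exceed the shares of all genes was not tested. At 2 h 3 rose, where 5.04% of all genes rose: Cxcl10 (3.32 ± 0.51, adjusted p = 7.8e-05), Irf1 (1.20 ± 0.31, adjusted p = 0.015) and Gbp5 (1.05 ± 0.29, adjusted p = 0.027). Cxcl10 read 7.93 and 7.01 at 0 h, 11.00 and 10.59 at 2 h, 9.995 and 9.23 at 8 h, 8.10 and 7.93 at 24 h and 7.07 and 7.05 at 72 h. Irf1 read 10.96 and 10.47 at 0 h and 11.94 and 11.90 at 2 h. The Cxcl10 call at 2 h held without each array in turn, and the count was 1 without either array at 2 h. At 8 h 4 rose, where 6.36% of all genes rose: Cxcl10 (2.14), Bst2 (1.33), Gbp5 (0.95) and Oas3 (0.81). Bst2 read 9.02 and 8.07 at 0 h and 10.03 and 9.70 at 8 h. The count was 0 without Treg at 0 h number 2 or Treg at 8 h number 1, and 2 after quantile normalization or without the filter on dim genes. Other-cell markers were at 7.04 and 5.68 at 8 h beside 6.37 and 5.78 at 0 h, with neutrophil markers at 8.68 against 6.72 and B cell markers at 7.99 against 6.93 on number 1. They were thus higher at 8 h than at 0 h on number 1 and not on number 2, and their part was not tested. The median change was 0.29 at 2 h and 0.41 at 8 h, against -0.06 and -0.02 over all genes. With limma no member was called at 24 h (2 at an unadjusted p under 0.05), where 0.451% of all genes rose, or at 72 h (0 at an unadjusted p under 0.05), where 0.0241% rose. The largest changes were Dhx58 (0.78 ± 0.30) and Ifit3 (0.73 ± 0.63) at 24 h, and Ifit3 (-0.66 ± 0.63) and Ifit1 (-0.58 ± 0.57) at 72 h.

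**Figure D4:**
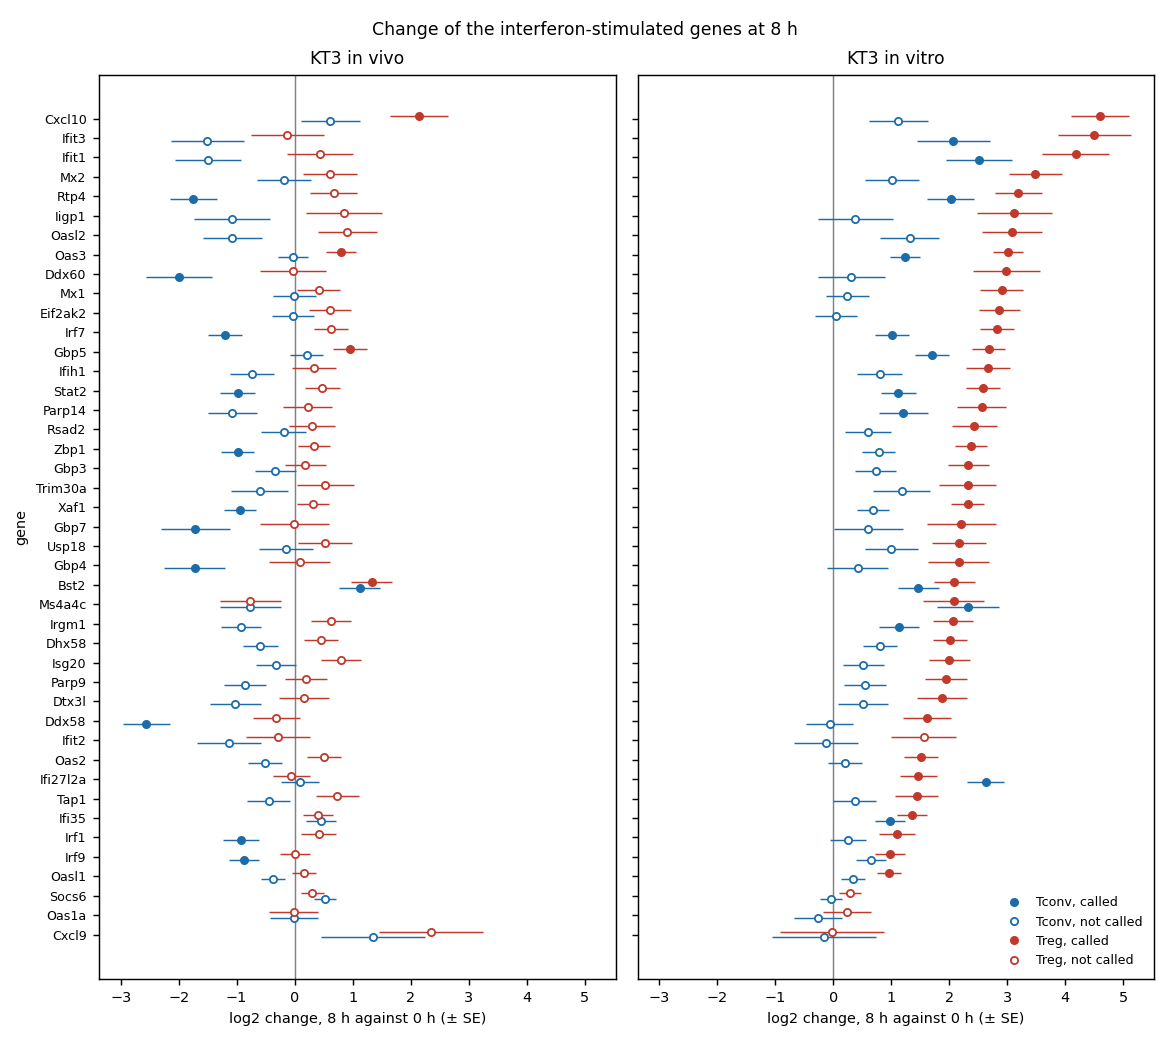
Log2 change at 8 h against 0 h (± SE, 2 arrays a group) for the 43 genes, ordered by the change in cultured Treg, with called genes filled. In culture all but 4 Treg points are filled and lie above 0, and in vivo the filled Tconv points lie below 0 apart from Bst2.

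The chemokine Cxcl9 was set apart by array number in vivo. It read 8.70 and 6.10 in Tconv at 2 h, 8.62 and 5.85 in Tconv at 8 h, 8.87 and 5.96 in Treg at 2 h and 9.87 and 6.09 in Treg at 8 h. On number 1 it was high in all 4 groups and on number 2 near its level at 0 h, which was 5.50 to 5.96 on the in vivo arrays. Cxcl9 was called at no time. The macrophage markers on the same arrays averaged 7.22 and 5.54, 6.34 and 5.45, 7.24 and 5.57 and 7.49 and 5.55, in the same order. Lyz2, a lysozyme of macrophages and neutrophils, read 9.33 and 5.06 in Treg at 8 h. The mean of the dendritic cell markers on these arrays was 5.93 and 5.92. Cxcl10 in Tconv at 2 h also differed by number (9.87 and 8.06), and in Treg at 2 h less so (11.00 and 10.59). On other arrays numbered 1 the macrophage markers were also high while Cxcl9 was low: 7.57 with Cxcl9 at 5.76 in Treg at 72 h, 7.03 with 5.50 in Treg at 0 h and 6.76 with 5.96 in Tconv at 0 h. Lyz2 read 9.44 in Treg at 0 h and 10.85 at 72 h on number 1. The mean of the macrophage markers thus went with the array number and did not follow Cxcl9 over time. Single markers differed in this. Cd14, a macrophage marker, read 5.71 at 0 h, 6.94 at 8 h and 5.67 at 72 h in Treg on number 1, moving with Cxcl9. In Tconv on number 1 Cd14 read 5.76 at 0 h, 6.66 at 2 h and 5.58 at 8 h, with Cxcl9 at 5.96, 8.70 and 8.62. Cd68, of the same list, read 7.34, 7.97 and 7.35 on these arrays. In Treg on number 1 Cd68 read 7.50 at 0 h, 8.24 at 2 h, 8.27 at 8 h and 7.95 at 72 h. The part of other cells in the Cxcl9 readings was not tested. On number 2 Cxcl10 in Treg in vivo read 7.01 at 0 h and 10.59 at 2 h, with markers of other cells at 5.78 and 5.69. The part of other cells in the Cxcl10 readings was not tested either.

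The responses of the 2 cell types in vivo were not called different for any member at 2, 8, 24 or 72 h with limma, where 0.0483%, 0.233%, 0.0644% and 0.0161% of all genes were. At an unadjusted p under 0.05 the numbers of members were 1, 21, 1 and 1. At 8 h the median difference, Treg minus Tconv, was 1.07 against -0.02 over all genes, led by Rtp4 (2.42 ± 0.57, adjusted p = 0.089) and Ddx58 (2.24 ± 0.58, adjusted p = 0.15). Rtp4, a receptor chaperone, read 10.01 and 9.74 in Treg at 8 h and 7.55 and 6.81 in Tconv. At 8 h 4 members were called without culture Tconv at 0 h number 1 or after quantile normalization, 2 without Treg at 0 h number 1 and 1 without Tconv at 0 h number 2. At 72 h Ms4a4c differed by -2.83 ± 0.75 and was not called (adjusted p = 1), with 8.48 and 8.40 in Treg and 10.14 and 10.82 in Tconv. The largest differences at the other times were Cxcl10 (1.11) and Oasl2 (1.02) at 2 h and Ms4a4c (-1.31) and Gbp7 (1.27) at 24 h, neither pair called.

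Rat IgG gave 1 array per cell type, number 2 in both. Against 0 h no member was called with limma in Tconv or in Treg, where 0% of all genes were. The largest values were Ifit3 (-1.23) and Ifit1 (-0.76) in Tconv and Ifit1 (-1.36) and Ifit3 (-1.20) in Treg. They are against the mean of both arrays at 0 h, of which number 1 read higher for most members. On 0 h number 2 alone Ifit3 read 5.93 and Ifit1 7.50 in Tconv, beside 5.43 and 7.34 after IgG. In Treg Ifit1 read 7.54 and Ifit3 5.80 on that number, beside 7.03 and 5.66 after IgG. The mean of the 43 members in Treg was 7.97 after IgG, beside 9.00 and 8.15 at 0 h. With 1 IgG array, its spread is taken from the other groups of the model, and no replicate of IgG checks the calls. KT3 at 24 h against IgG called Ifi27l2a in Tconv (2.02 ± 0.40, adjusted p = 0.0046), where 1.47% of all genes were called. It read 8.69 after IgG and 10.95 and 10.47 after KT3, and the call was lost without Tconv at 24 h number 1. In Treg no member was called with limma, where 0.274% of all genes were. The median change was 0.91 against 0.10 over all genes, and all 43 changes, which share the 1 IgG array, were above 0. Treg at 24 h number 1 read higher than number 2 for 40 of 43 members (64.2% of all genes), with a median difference of 0.30. Both numbers enter the KT3 side of these changes, while IgG is number 2 alone. The largest were Ifit3 (1.93 ± 0.77) and Rtp4 (1.63 ± 0.49). In Treg 1 member was called without Treg at 24 h number 2 or without culture Tconv at 0 h number 1.

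The responses in the 2 settings differed most in Treg at 8 h. The in vivo change was called smaller for 11 members and larger for none, where 0.33% of all genes were called smaller, and the median difference was -2.00 against -0.02. The largest were Ifit3 (-4.63 ± 0.89, adjusted p = 0.014), Ifit1 (-3.74 ± 0.81), Mx2 (-2.88), Rtp4 (-2.52), Mx1 (-2.49) and Eif2ak2 (-2.25). Ifit3 read 7.92 and 5.80 at 0 h and 7.27 and 6.20 at 8 h in vivo, so that its 2 arrays at 8 h lay between those at 0 h. No call survived leaving out each array: the count was 0 without in vivo Treg at 0 h number 1, 4 without either number 1 array at 8 h, 2 without in vivo Treg at 8 h number 2 or culture Treg at 0 h number 1, 1 without culture Treg at 8 h number 2 and 18 without culture Tconv at 0 h number 1. With the number as a block within each setting 22 were called. In Treg at 2 h no member was called with limma (1 at an unadjusted p under 0.05, 1 with the block and 1 without culture Treg at 0 h number 2), where 1.79% of all genes were smaller in vivo. The largest values were Cxcl9 (1.65 ± 1.27) and Gbp3 (-1.47 ± 0.50). Gbp5 was the 1 member called at 24 h (-2.17 ± 0.41, adjusted p = 0.026) and at 72 h (-1.75 ± 0.41, adjusted p = 0.026), where 0.0966% and 1.34% of all genes were smaller in vivo. With the block the counts were 7 and 4. Both calls were lost without 6 of the 9 arrays left out in turn, and 2 members were called at each time without in vivo or culture Treg at 0 h number 2 or without culture Tconv at 0 h number 1.

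In Tconv 7 members had a smaller change in vivo at 8 h, where 0.258% of all genes did, 6 at 24 h, where 0.443% did, 4 at 72 h, where 0.0805% did, and 1 at 2 h, where 4.22% did. At 8 h the largest were Ifit1 (-4.01 ± 0.81, adjusted p = 0.018), Rtp4 (-3.77 ± 0.57, adjusted p = 0.00098), Ifi27l2a (-2.53), Ddx58 (-2.50), Irf7 (-2.21) and Stat2 (-2.11). Rtp4 fell in vivo and rose in culture at 8 h, and kept its call without each array. Gbp5 differed by -3.17 ± 0.41 at 24 h (adjusted p = 0.00015) and by -3.19 ± 0.41 at 72 h (adjusted p = 0.00053), also kept without each array. Gbp5 in vivo read 7.68 and 7.20 at 24 h and 6.54 and 7.003 at 72 h, beside 7.70 and 7.34 at 0 h. At 2 h the member was Ifi27l2a (-1.57 ± 0.46, adjusted p = 0.048). With the block the counts were 18, 17 and 11 at 8, 24 and 72 h. At 8 h the count was 1 without in vivo Tconv at 0 h number 1, in vivo Tconv at 8 h number 2, culture Tconv at 0 h number 1 or culture Tconv at 8 h number 2, 3 without in vivo Tconv at 8 h number 1, 13 without culture Tconv at 8 h number 1 and 28 without culture Tconv at 0 h number 2. At 24 h it was 1 without in vivo Tconv at 0 h number 1, in vivo Tconv at 24 h number 2 or culture Tconv at 0 h number 1, 2 without culture Tconv at 24 h number 2 and 24 without culture Tconv at 0 h number 2. At 72 h it was 1 without in vivo Tconv at 0 h number 1, in vivo Tconv at 72 h number 1 or culture Tconv at 72 h number 2, 2 without in vivo Tconv at 72 h number 2 or culture Tconv at 0 h number 1 and 24 without culture Tconv at 0 h number 2. At 2 h the call was lost without 6 of the 8 arrays, and 12 members were called without culture Tconv at 0 h number 2.

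The genes around the pathway were counted from lists of ligands, receptors, factors, inhibitors and further induced genes. Of 10 interferon genes 3 could be tested, Ifng, Ifna5 and Ifna9, 6 clusters were too dim and 1 was shared. Ifng, which encodes interferon gamma, rose in Tconv in vivo. It read 5.84 and 6.16 at 0 h, 8.12 and 7.68 at 2 h and 7.31 and 7.78 at 8 h (1.90 ± 0.32, adjusted p = 0.00044, and 1.55 ± 0.32, adjusted p = 0.00087). In Treg in vivo it stayed between 5.76 and 6.33 on the 10 arrays of the KT3 series. In culture it was 7.06 and 6.86 in Tconv at 2 h, beside 6.36 and 6.30 at 0 h, and was not called. At 24 h in culture it was higher on number 2 than on number 1, at 7.38 and 6.23 in Tconv and 7.12 and 6.17 in Treg.

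Of 8 further STAT and IRF factors tested, Irf8, a factor of the same family as Irf1, rose most. In vivo its change at 2 h was 3.45 ± 0.30 in Tconv (adjusted p = 3.9e-08) and 3.20 ± 0.30 in Treg (adjusted p = 1.3e-07), and it was called at 8 h as well (2.23 and 2.24). Stat3 rose by 0.89 at 2 h in both cell types in vivo. Of these factors 2 were called at 2 h in each cell type, where 3.04% of all genes rose in Tconv and 5.04% in Treg, and 1 was without each array in turn. Socs1, the main inhibitor of Jak kinases at interferon receptors, rose by 1.65 in Tconv and 1.71 in Treg at 2 h in vivo. None of the 7 receptors and Jak kinases was called at any time in vivo. In culture at 2 h 5 of 7 rose in Tconv, led by Ifngr2 (2.86) and Ifngr1 (2.82), where 19.5% of all genes rose, and 3 of 7 in Treg, Jak2 (2.33), Ifngr1 (1.62) and Ifngr2 (1.62), where 4.02% did. In Tconv 2 were called without Tconv at 0 h number 1, and in Treg 1 without Treg at 0 h number 1 or Treg at 2 h number 2.

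Further interferon-stimulated genes were counted in the same comparisons. Of 21 tested, 15 rose in Treg culture at 8 h, where 4.52% of all genes rose, with a median of 1.67 against 0.07 over all genes. They were led by Parp12 (2.70), Cmpk2 (2.63), Rnf213 (2.58) and Herc6 (2.43). The count was 7 without Treg at 0 h number 1 and 8 without either array at 8 h. In Tconv culture at 24 h 9 of 21 rose, where 19.4% of all genes rose, with a median of 1.04 against 0.23, led by Samhd1 (2.53) and Trim25 (2.03). The count was 3 without Tconv at 0 h number 1, 5 without Tconv at 24 h number 2 and 15 without Tconv at 0 h number 2. In Tconv in vivo at 8 h 6 of 21 fell and none rose, where 6.54% of all genes fell, with a median of -0.59 against -0.06, led by Ifi203 (-2.71), Slfn5 (-2.20), Sp100 (-1.89) and Gbp9 (-1.78). The count was 2 without Tconv at 0 h number 1 and 3 without Tconv at 8 h number 1.

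Of 10 genes of class I presentation 8 rose in Tconv culture at 24 h, where 19.4% of all genes did, with Psmb8 (1.55), an immunoproteasome subunit, the largest. None was called without Tconv at 0 h number 1, 4 were without Tconv at 24 h number 1 and 3 without Tconv at 24 h number 2. In Treg culture at 8 h 4 rose, where 4.52% of all genes did, of which none was called without Treg at 8 h number 1 and 1 without Treg at 0 h number 1. In vivo 3 of 10 rose in Treg at 8 h, where 6.36% of all genes rose, Psme2 (1.14), Psme1 (0.94) and Tapbpl (0.68), and 1 in Tconv, Psme2 (0.87), where 14.4% did. None of these was called without Treg at 0 h number 2 or either Treg array at 8 h, or, in Tconv, without Tconv at 0 h number 2 or Tconv at 8 h number 1.

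Across the 16 comparisons with 0 h Gbp5 was called in 10, always higher. Ifi27l2a and Rtp4 were called in 7 each, and Rtp4 was lower in 1 of them. Cxcl10, Ms4a4c, Gbp3, Irgm1, Bst2, Irf1, Irf7 and Stat2 were called in 6 each, the last 3 of them lower once, in Tconv in vivo at 8 h.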

How the data were processed

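RNA amplified from sorted T cells was measured on Affymetrix ST1.0 Gene arrays. The authors deposited linear intensity values, made with RMA in Affymetrix Power Tools per the submitters' processing notes, for 24922 transcript clusters on 42 arrays (4.84 to 29756, array medians 87.6 to 116.4). Tool versions were not stated in the labels. The number of arrays limits the precision. Here log2 was taken with no further scaling. Of the clusters 21425 carry 1 gene symbol in the platform's table, 1399 several and 2098 none. The cluster of highest mean was kept per symbol (2 members had more than 1), giving 19752 genes. The test took in the 12425 of them that exceeded an array's median on 2 arrays or more.

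Means of 22 groups were fitted to all 42 arrays with limma 3.58.1 in R 4.3.3 (lmFit, eBayes, 20 residual and 5.01 prior degrees of freedom), with Benjamini-Hochberg adjustment over all tested genes and a threshold of 0.05, after the steps were tested on simulated data. Promoters were searched in Python 3.11.15 (numpy 2.4.6, pandas 2.3.3, matplotlib 3.10.9). In each comparison the called members of largest change were named, up to 6 in each direction, or, where none was called, the 2 of largest change, with up to 4 called genes per pathway list. Members given for their role beyond this were chosen after their values were seen. Promoters were printed for up to 5 members called against 0 h in the most comparisons, and that of Ifit1 was added after its values were seen. The members and lists were chosen with earlier results of these data known. Alternatives were quantile normalization, median centring, an offset of 16 before log2, no filter on dim genes, the array number as a block within each setting, the mean of all clusters, separate fits per setting and leaving out each array. Leaving out the 3 culture arrays of narrowest range, and the in vivo arrays numbered 1, and counting the lists without each array, was chosen after seeing the data.

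In culture the number goes with sex and age per the labels, so that a block on it there is one on sex and age, and its count stands beside a culture result where it moved by over 1.5 times. The labels do not say that arrays of a number share a mouse. In vivo it is only a shared number.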

Additional observations from a re-analysis of the deposited data

Results flagged for a closer look

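The values here are differences between changes on the log2 scale, each past the adjusted threshold of limma's test of the difference itself. No group had 4 arrays or more, so that no array was tested against the others of its group.

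Between cell types in culture, Treg minus Tconv, the differences at 8 h were Cxcl10 (3.48), Eif2ak2 (2.82), Mx1 (2.66), Irf7 (1.81), Oas3 (1.77) and Xaf1 (1.63). At 24 h the value was Ifi27l2a (-2.23). At 72 h the values were Ms4a4c (-3.35) and Eif2ak2 (2.16). Eif2ak2 is the gene named at both 8 h and 72 h.

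Between settings, in vivo minus culture, Tconv gave Ifi27l2a (-1.57) at 2 h. At 8 h Tconv gave Ifit1 (-4.01), Rtp4 (-3.77), Ifi27l2a (-2.53), Ddx58 (-2.50), Irf7 (-2.21), Stat2 (-2.11) and Zbp1 (-1.77). At 24 h they gave Gbp5 (-3.17), Rtp4 (-2.44), Irgm1 (-2.43), Irf1 (-2.15), Stat2 (-2.10) and Zbp1 (-1.98). At 72 h they gave Gbp5 (-3.19), Irgm1 (-3.05), Irf1 (-2.27) and Zbp1 (-2.14). Treg gave Ifit3 (-4.63), Ifit1 (-3.74), Mx2 (-2.88), Rtp4 (-2.52), Mx1 (-2.49), Eif2ak2 (-2.25), Oas3 (-2.20), Irf7 (-2.20), Stat2 (-2.11), Zbp1 (-2.04) and Xaf1 (-2.00) at 8 h, Gbp5 (-2.17) at 24 h and Gbp5 (-1.75) at 72 h. All of these values between settings are negative, so that each named change was lower in vivo than in culture. Sex and age differ between the settings per the labels, and their part was not tested.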

How the results depend on the processing

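With 2 arrays a group and 1 for IgG, 146 of the 208 calls of single members were lost without at least 1 array and 62 were kept, and the signal over background limits what can be said of dim interferon genes. None of the 208 turned its direction under any alternative run. An offset of 16 and the block lost 0 of the 208, the mean of clusters 1, dropping the filter 12, median centring 13 and quantile normalization 14. Separate fits, which cannot hold differences between settings, kept 125 and lost 52. Among calls they bear on, leaving out the 3 narrow culture arrays kept 99 and lost 82, and leaving out the in vivo arrays numbered 1 kept 1 and lost 26. Both were chosen after seeing the data. Where counts moved, the cause was not tested. The all-gene median shifted by over 0.1 under median centring, for example from 0.23 to 0.43 for Tconv in culture at 24 h and from -0.06 to 0.10 for Tconv in vivo at 8 h.

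The members called numbered, after quantile normalization, 2 for Treg in vivo at 8 h, 10 for Tconv in culture at 2 h, 14 for Treg against Tconv in culture at 0 h, 4 for the cell-type difference in vivo at 8 h, 16 for the setting difference in Tconv at 8 h, 7 for the setting difference in Tconv at 72 h. After median centring they numbered 7 for Treg in culture at 72 h. Without the filter on dim genes they numbered 2 for Treg in vivo at 8 h, 0 for the setting difference in Tconv at 2 h. With separate fits they numbered 19 for Tconv in vivo at 8 h, 2 for Tconv in vivo at 72 h, 6 for Treg in vivo at 2 h, 3 for Tconv in culture at 2 h, 7 for Tconv in culture at 72 h, 1 for Treg in culture at 2 h, 5 for Treg against Tconv in vivo at 0 h, 3 for Treg against Tconv in culture at 0 h, 1 for the cell-type difference in vivo at 8 h, 0 for the cell-type difference in culture at 24 h, 1 for the cell-type difference in culture at 72 h. Without the 3 narrow culture arrays they numbered 0 for Tconv in culture at 2 h, 8 for Tconv in culture at 8 h, 12 for Tconv in culture at 24 h, 3 for Tconv in culture at 72 h, 1 for Treg in culture at 2 h, 1 for Treg in culture at 72 h, 2 for Treg against Tconv in culture at 0 h, 1 for the cell-type difference in culture at 8 h, 0 for the cell-type difference in culture at 24 h, 1 for the cell-type difference in culture at 72 h, 0 for the setting difference in Tconv at 2 h, 1 for the setting difference in Tconv at 24 h, 2 for the setting difference in Tconv at 72 h, 0 for the setting difference in Treg at 24 h, 0 for the setting difference in Treg at 72 h. Without the in vivo arrays numbered 1 they numbered 0 for Tconv in vivo at 2 h, 0 for Tconv in vivo at 8 h, 0 for Tconv in vivo at 24 h, 0 for Tconv in vivo at 72 h, 1 for Treg in vivo at 2 h, 0 for Treg in vivo at 8 h, 0 for Treg against Tconv in vivo at 0 h, 0 for KT3 against IgG in Tconv.

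With the array number as a block (a replicate block within each setting) the members called numbered 20 for Tconv in vivo at 8 h, 6 for Treg in vivo at 2 h, 12 for Treg in culture at 72 h, 16 for Treg against Tconv in culture at 0 h, 3 for the cell-type difference in vivo at 8 h, 12 for the cell-type difference in culture at 8 h, 18 for the setting difference in Tconv at 8 h, 17 for the setting difference in Tconv at 24 h, 11 for the setting difference in Tconv at 72 h, 1 for the setting difference in Treg at 2 h, 22 for the setting difference in Treg at 8 h, 7 for the setting difference in Treg at 24 h, 4 for the setting difference in Treg at 72 h. The block moved no other count by over 1.5 times. In vivo the arrays share only a number, and the correlations of deviations ran from -0.171 to 0.775 (32 of 45 pairs of groups over 0.1), beside -0.447 to 0.709 in culture (28 of 45).

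Leaving out 1 array at a time gave counts of 0 to 0 for Treg in vivo at 24 h, Treg in vivo at 72 h, the cell-type difference in vivo at 2 h, the cell-type difference in vivo at 24 h, the cell-type difference in vivo at 72 h, IgG against 0 h in Tconv and IgG against 0 h in Treg, 0 to 1 for Tconv in vivo at 24 h, Tconv in vivo at 72 h, the setting difference in Treg at 2 h, KT3 against IgG in Tconv and KT3 against IgG in Treg, 0 to 2 for the setting difference in Treg at 24 h and the setting difference in Treg at 72 h, 0 to 3 for Treg in culture at 2 h, 0 to 4 for Tconv in vivo at 2 h and the cell-type difference in vivo at 8 h, 0 to 5 for Treg in vivo at 8 h, 0 to 6 for the cell-type difference in culture at 2 h and the cell-type difference in culture at 24 h, 0 to 12 for the cell-type difference in culture at 72 h and the setting difference in Tconv at 2 h, 0 to 13 for the cell-type difference in culture at 8 h, 0 to 18 for the setting difference in Treg at 8 h, 0 to 19 for Tconv in culture at 2 h, 1 to 4 for Treg in vivo at 2 h, 1 to 11 for Treg in culture at 72 h, 1 to 24 for the setting difference in Tconv at 24 h and the setting difference in Tconv at 72 h, 1 to 28 for the setting difference in Tconv at 8 h, 2 to 4 for Treg against Tconv in vivo at 0 h, 2 to 24 for Treg against Tconv in culture at 0 h, 3 to 18 for Tconv in vivo at 8 h, 3 to 26 for Tconv in culture at 72 h, 5 to 24 for Tconv in culture at 8 h, 11 to 32 for Tconv in culture at 24 h, 13 to 33 for Treg in culture at 24 h, 27 to 40 for Treg in culture at 8 h.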
